A study of Mus musculus with 285 samples.

Results

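Egr1, Btg2, Fos and Junb are immediate early genes, and each was read by 1 probe of the array, so that the 4 genes are 4 of 11622 named genes and 4 of 23560 probes. Their probes were taken by gene symbol in the annotation of the array. The choice of these genes was made with earlier results of these data known. Muscle RNA of 285 F2 mice was compared on 2-colour arrays with a pool made of equal amounts of RNA from all the mice. The mice were of both sexes and were the F2 generation of C57BL/6J by C3H/HeJ crosses, both inbred strains, set up in either direction. All of them shared the same feeding, chow with 4% fat up to 8 weeks of age and then 12 weeks of a Western diet with 42% fat and 0.15% cholesterol, and were killed at 20 weeks after 12 hours without food. The labels name no muscle, and no sex or genotype for single mice, so there was 1 group of 285 mice and the only order used was the mouse number in the sample title, which runs from 51 to 362.

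Immediate early genes are transcribed within minutes of a stimulus, without the need for new protein, because the transcription factors that act on their promoters are already in the cell. Their mRNAs are short-lived, so their level reflects the state of a tissue shortly before it was frozen. In skeletal muscle they respond to contraction, stretch, injury and stress hormones, and their transcription factor products then act on later genes. Egr1 encodes a zinc finger transcription factor. Fos and Junb encode leucine zipper proteins that pair to form the transcription factor AP-1. Btg2 encodes an antiproliferative protein that recruits the CCR4-NOT complex, which shortens the poly(A) tails of mRNAs, and it is also a target of the tumour suppressor p53.

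The promoters of Btg2, Fos and Junb are shown because only these 3 of the 4 genes had a promoter window in the set used. Egr1 was therefore not searched. All 3 hold the core of the cyclic AMP response element, the DNA site through which factors of the CREB and ATF families act on early genes. Each line gives the 180 bases before the annotated start of transcription, 5′ to 3′ on the strand of the gene, from RefSeq on GRCm38.p6, and capitals mark the full element TGACGTCA, its core TGACG and the TATA box TATAAA. The Btg2 stretch is chr1:134079156-134079335 on the minus strand, the Fos stretch chr12:85473710-85473889 on the plus strand and the Junb stretch chr8:84978749-84978928 on the minus strand.
Btg2: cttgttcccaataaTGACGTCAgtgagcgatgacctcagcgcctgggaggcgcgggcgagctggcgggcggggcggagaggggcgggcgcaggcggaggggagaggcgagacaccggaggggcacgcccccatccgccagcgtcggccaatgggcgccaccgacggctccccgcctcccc
Fos: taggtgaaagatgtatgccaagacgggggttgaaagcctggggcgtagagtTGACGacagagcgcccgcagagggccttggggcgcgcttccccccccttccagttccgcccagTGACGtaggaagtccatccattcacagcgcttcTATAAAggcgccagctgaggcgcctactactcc
Junb: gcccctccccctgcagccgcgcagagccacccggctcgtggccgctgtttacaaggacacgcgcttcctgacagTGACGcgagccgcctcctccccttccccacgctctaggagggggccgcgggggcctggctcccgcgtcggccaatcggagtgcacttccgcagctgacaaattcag
In Btg2 the full element TGACGTCA begins 166 bases before the start, and it contains the core on both strands. In Fos the core begins 129 and again 66 bases before the start, and TATAAA begins 33 bases before it. In Junb the core begins 106 bases before the start, and a TATAAA lies at the annotated start itself, just beyond the bases shown. Over all 32851 RefSeq promoter windows of 300 bases, searched on both strands, 1.79% held TGACGTCA, 20.8% held TGACG and 13.6% held TATAAA anywhere in the window, bases after the start included, where each full element is also counted as a core. The CArG box, the site of serum response factor, was in 1.63% of windows and in none of these 3. Bases farther upstream than the windows were not searched, so a CArG box there would be missed. These are matches of letters in a window and say nothing about whether a factor was bound.

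Egr1 and Btg2 were among the most variable genes of the muscle, Fos was variable mostly through a few mice with high values, and Junb varied least of the 4. Values are log2 ratios of mouse over pool, so that 0 means the level of the pool and 1 a level 2-fold above it, and they compare mice for 1 gene and not genes with each other. Egr1 had its lowest value of -2.16 in mouse 219, a median of -0.55 and its highest value of 3.57 in mouse 281. The middle 50% of mice lay between -1.10 and 0.35, and the SD over mice was 1.14, the 43rd largest of the 11622 named genes, whose median SD was 0.21. Most mice were thus below the pool, and a smaller number stood far above it. Egr1 was at least 2-fold above the pool in 43 mice and at least 2-fold below it in 87, and its highest and lowest mice differed 52.8-fold.

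Btg2 was spread more evenly around the pool. Its lowest value was -2.04 in mouse 60, its median -0.01 and its highest 2.87, again in mouse 281. The SD was 1.02, the 70th largest of the named genes, with 55 mice at least 2-fold above the pool and 50 at least 2-fold below. High and low Btg2 were therefore about as frequent, and the extremes differed 30.2-fold. Fos lay close to the pool in most mice, with a lowest value of -0.76 in mouse 304, a median of -0.07 and a highest value of 2.49 in mouse 281. Its SD was 0.40, above that of 88.0% of named genes, and 10 mice were at least 2-fold above the pool while none was 2-fold below. The upper tail of Fos was the longest of the 4 genes, with a skewness of 2.23, against 1.14 for Junb, 0.997 for Egr1 and 0.185 for Btg2. Junb had the narrowest range, from -0.64 in mouse 298 through a median of -0.06 to 0.90 in mouse 266, with an SD of 0.25, above that of 62.6% of named genes. No mouse was 2-fold above or below the pool for Junb. Over all values of named genes, 0.681% were at least 2-fold above the pool and 0.565% at least 2-fold below it.

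The highest mice of Egr1, Btg2 and Fos were largely the same animals. Mouse 281 had the highest value of all 3 genes and a Junb value of 0.75. Mouse 310 had 3.35 for Egr1, 2.50 for Btg2, 1.72 for Fos and 0.54 for Junb. Mouse 288 had 3.22 for Egr1, 2.64 for Btg2, 1.63 for Fos and 0.88 for Junb. These were high for every gene, and mouse 305 followed with 3.25 for Egr1, 2.22 for Btg2, 1.40 for Fos and 0.44 for Junb. All 10 mice that were at least 2-fold above the pool for Fos were also so for Egr1, and 9 of them for Btg2 as well. The exception was mouse 88, in which Egr1 was 2.53, Fos 1.31 and Btg2 only 0.71. Egr1 and Btg2 were both at least 2-fold above the pool in 25 mice. In no mouse was Egr1 2-fold above the pool with Btg2 2-fold below, whereas 6 mice had Btg2 2-fold above with Egr1 2-fold below.

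Along the mouse number, Egr1 and Fos stood high in the same separate runs of mice, and Btg2 had a course of its own. The median of Egr1 was 1.42 in the 18 mice numbered 71 to 90 and 1.30 in the 20 mice numbered 271 to 290, while it lay between -1.08 and -0.66 in each run of 20 numbers from 91 to 250. Of the 43 mice at least 2-fold above the pool for Egr1, 12 were numbered 71 to 90, 11 were numbered 271 to 290 and 9 were numbered 291 to 310. Fos followed the same runs at lower amplitude, with medians of 0.33 in mice 71 to 90, 0.48 in mice 271 to 290 and 0.21 in mice 291 to 310, and between -0.17 and 0.02 in every other run. Btg2 shared the second of these runs, with a median of 1.29 and 13 mice at least 2-fold above the pool in mice 271 to 290, but in mice 71 to 90 its median was -0.11 and no mouse reached 2-fold. Its lowest run was that of mice 111 to 130, with a median of -1.51 and 13 of 15 mice at least 2-fold below the pool. In the next run, mice 131 to 150, the median of Btg2 was 0.61 while that of Egr1 was -0.94. Junb had run medians between -0.19 and 0.24, with the highest in mice 271 to 290.

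**Figure D1:**
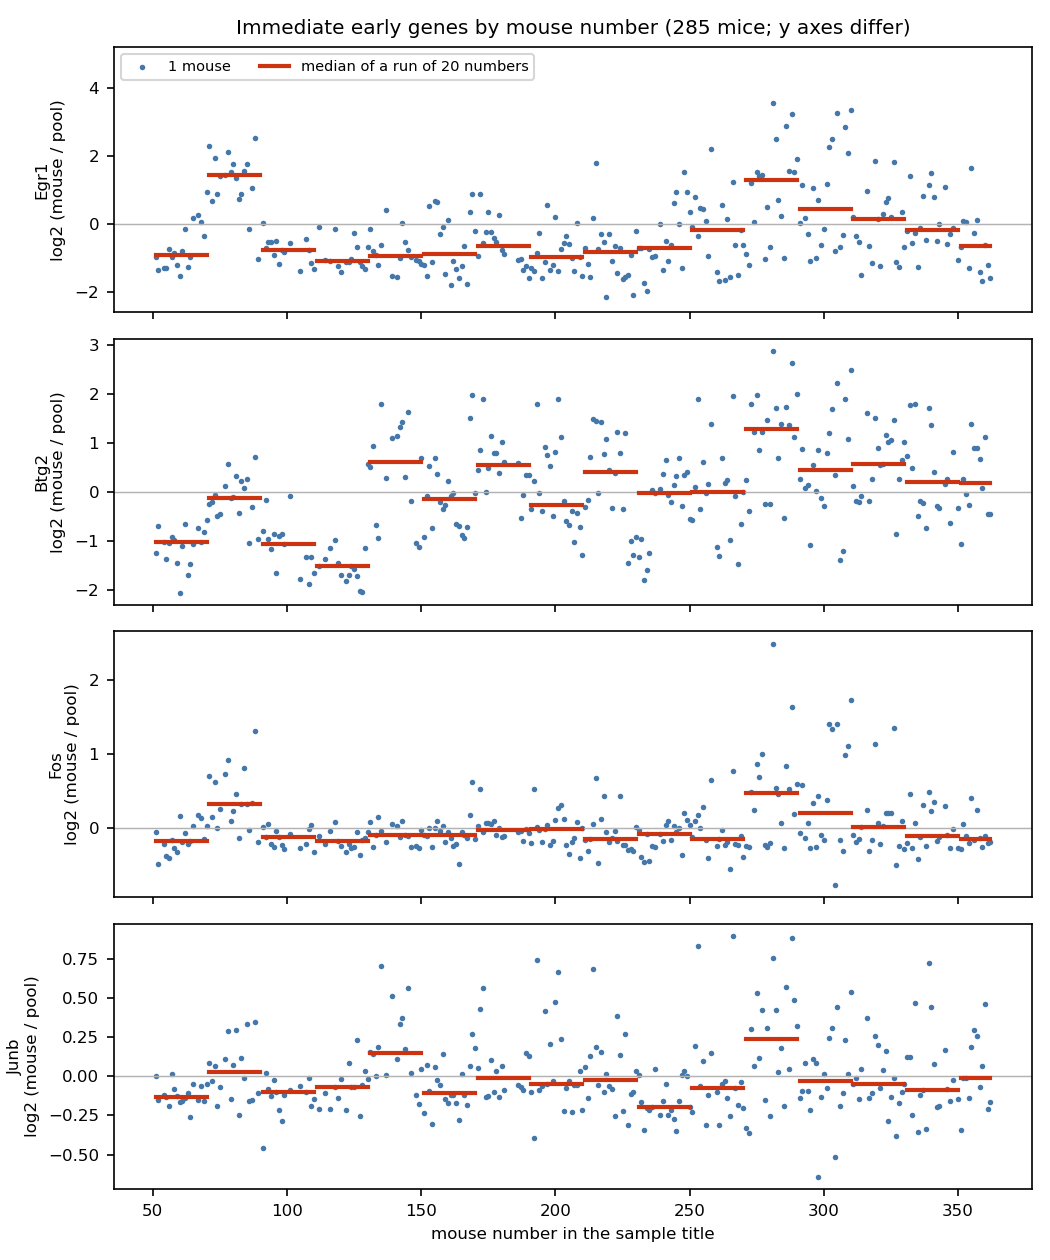
Log2 ratio of mouse over pool (y axis, a separate scale for each gene) against the mouse number in the sample title (x axis) for Egr1, Btg2, Fos and Junb. Each point is 1 of 285 mice and each red line is the median of a run of 20 numbers (12 in the last run); Egr1 and Fos stand high in mice 71 to 90 and 271 to 310, and Btg2 is lowest in mice 111 to 130.

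A smooth curve of the mouse number, a natural spline with 5 degrees of freedom, accounted for 26.3% of the variance of Btg2 (adjusted p = 2.6e-16, limma), 19.7% of that of Egr1 (adjusted p = 1.64e-11) and 11.6% of that of Fos (adjusted p = 3.27e-06). For Junb it accounted for 3.14% and did not pass the test (adjusted p = 0.124). Such a trend was common to the tissue, since it was called for 83.9% of all 21512 features, with a median share of 11.8%. The share for Btg2 was above that of 84.7% of features and the share for Fos above that of 49.3%. The labels do not say what the mouse number stands for, and they give no date or batch for single mice. A straight line accounted for 18.2% of the variance of Btg2 but for only 2.53% of that of Egr1, which has the 2 separate high runs. With tendon markers removed from every feature, as described further on, the share for Egr1 was 4.39% (adjusted p = 0.0355, limma). In that setting the share for Btg2 was 23.1%, and that for Fos was 3.01% (adjusted p = 0.148, limma). With a spline of 10 degrees of freedom the share for Junb was 7.12% (adjusted p = 0.0277, limma).

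The 4 genes varied together from mouse to mouse, with Egr1 nearest to Fos and Btg2 nearest to Junb. Over 285 mice, Pearson's r was 0.812 between Egr1 and Fos (Spearman's rho 0.699) and 0.674 between Btg2 and Junb (rho 0.631). It was 0.598 between Btg2 and Fos (rho 0.584), 0.555 between Egr1 and Btg2 (rho 0.496), 0.540 between Fos and Junb (rho 0.521) and 0.432 between Egr1 and Junb (rho 0.375). Fos and Junb, whose products can pair in AP-1, were thus not the closest pair. In two-sided permutation tests the p of r and of rho was 1e-05 for each of the 6 pairs, before and after Benjamini-Hochberg adjustment over them, which is the smallest that 100000 shuffles can give. The shuffles treat the mice as exchangeable, which the trends along the mouse number go against. When the 2 mice with the most extreme values of the first gene were left out, r lay between 0.396 for Egr1 with Junb and 0.802 for Egr1 with Fos. No gene fell into separate clusters of mice by a rule that asked for means over 3 SD apart.

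Within ranges of the mouse number every pair kept its sign. Among 143 lower-numbered mice r was 0.736 for Egr1 with Fos and 0.675 for Btg2 with Junb, and among 142 higher-numbered mice it was 0.853 and 0.741 for the same pairs. Egr1 with Btg2 had 0.297 among lower-numbered and 0.716 among higher-numbered mice, and Egr1 with Junb had 0.194 (adjusted permutation p = 0.0214) and 0.589. For Btg2 with Fos the values were 0.421 and 0.723, and for Fos with Junb 0.354 and 0.638. The difference between the ranges was not tested. In the 209 mice outside numbers 51 to 90 and 271 to 310, a range that holds the high runs and also the low mice 51 to 70, r was 0.669 for Egr1 with Fos, 0.643 for Btg2 with Junb and 0.554 for Btg2 with Fos. It was 0.460 for Egr1 with Btg2, 0.428 for Fos with Junb and 0.258 for Egr1 with Junb, the pair that lost most. With the curve of the mouse number removed from each gene, r was 0.795 for Egr1 with Fos, 0.708 for Btg2 with Junb, 0.625 for Btg2 with Fos and 0.620 for Egr1 with Btg2, and 0.552 for Fos with Junb and 0.471 for Egr1 with Junb. The values of 2 genes in 1 mouse come from the same RNA and the same array.

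**Figure D2:**
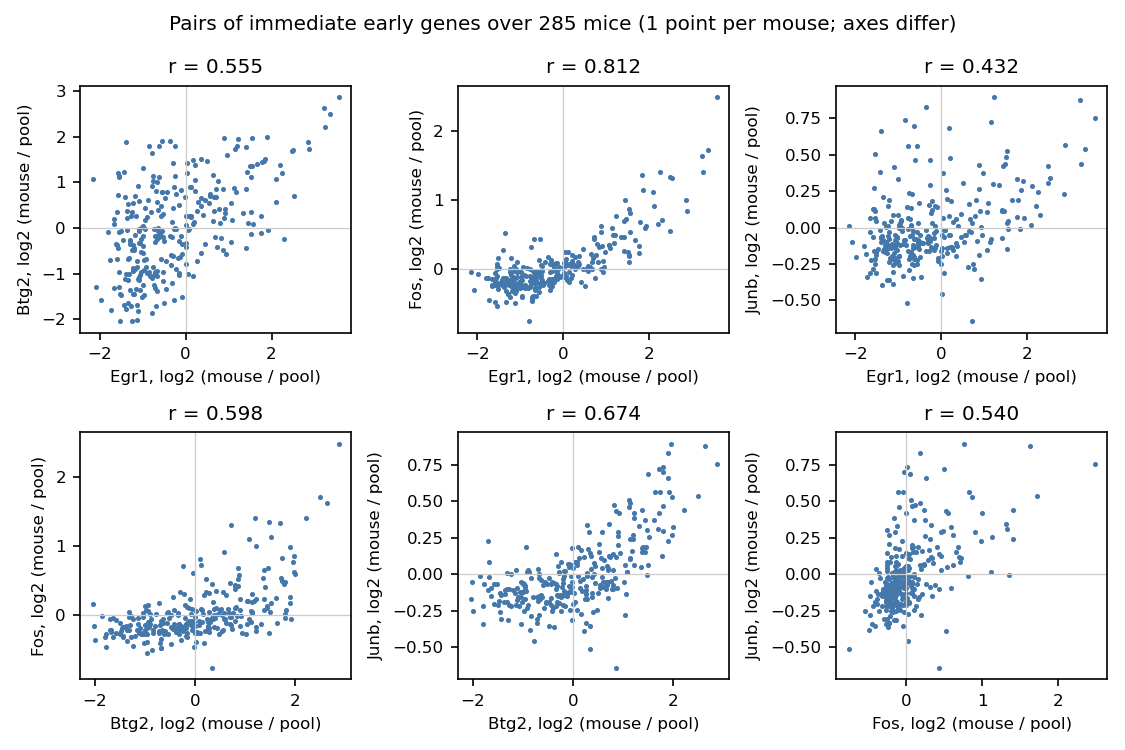
Each of the 6 pairs of Egr1, Btg2, Fos and Junb, with log2 ratios of mouse over pool on both axes (scales differ between panels) and 1 point for each of 285 mice. Pearson's r stands above each panel; the points of Egr1 with Fos lie closest to a single rising curve (r = 0.812), and those of Egr1 with Junb are the most scattered (r = 0.432).

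To see which other genes varied with them, each of 21511 other features was fitted on each gene, and the slope is given as the log2 change of a feature per SD of Egr1, Btg2, Fos or Junb. With Egr1, 15% of all features rose and 27.1% fell at an adjusted p under 0.05. With Btg2, 15.4% rose and 23.4% fell, with Fos 4.03% rose and 4.7% fell, and with Junb 7.29% rose and 6.62% fell. Of the 126 genes on 8 lists of the immediate early response and its surroundings, 100 were measured. Of those, 60 rose and 9 fell with Egr1, 64 rose and 9 fell with Btg2, 54 rose and 2 fell with Fos, and 53 rose and 1 fell with Junb. The median r of the 100 genes was 0.20 with Egr1, 0.28 with Btg2, 0.19 with Fos and 0.16 with Junb, whereas the medians over all named genes lay between -0.0191 and -0.00323. In the lower-numbered mice alone the counts that rose were 36, 43, 15 and 26, in the order Egr1, Btg2, Fos and Junb. Of all 21511 features, 1448, 1736, 38 and 547 rose there. Outside numbers 51 to 90 and 271 to 310 the list counts were 48, 53, 34 and 34. Over all features 2353 rose with Egr1, 1724 with Btg2 and 267 with Fos in that range. The matching count for Junb is not given here, so its 34 list genes cannot be read against it. The 4 fits share all their mice.

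Other AP-1 proteins behaved unlike one another. Of 7 measured genes of the family, 3 rose and none fell with Egr1, 3 rose and 2 fell with Btg2, 3 rose and 1 fell with Fos, and 4 rose and 1 fell with Junb. Atf3, a stress-induced member of the ATF family, had an r of 0.73 with Egr1, 0.57 with Btg2, 0.70 with Fos and 0.34 with Junb. Fosl1, which encodes the Fos relative FRA1, had 0.64, 0.41, 0.59 and 0.27, and Jund, the Jun relative with the steadiest expression in most cells, had 0.44, 0.56, 0.33 and 0.33, each rising with all 4 genes. Jun itself, the best known partner of Fos, did not pass the test in any of the 4 fits, with r of 0.10, -0.01, 0.09 and -0.03. Maff, a small MAF protein, fell with Btg2 (r = -0.51), Fos (-0.18) and Junb (-0.23). Fosb was not among the named genes analysed here.

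Among 15 other early nuclear regulators, all of them measured, 10 rose and 2 fell with Egr1, 12 rose and 1 fell with Btg2, 10 rose and 1 fell with Fos, and 12 rose and none fell with Junb. Median r was 0.29 with Egr1, 0.52 with Btg2, 0.30 with Fos and 0.32 with Junb. Csrnp1, a cysteine- and serine-rich nuclear protein, followed Btg2 more closely than any other named gene (r = 0.915), rising by 0.57 ± 0.01 log2 per SD of Btg2 (SE, n = 285 mice, adjusted p = 1.73e-110, limma). Its r with Egr1 was 0.53. Ier2, a small nuclear protein of the early response, had r of 0.78 with Egr1, 0.69 with Btg2, 0.70 with Fos and 0.57 with Junb. Ier5, of the same family, had 0.55, 0.66, 0.63 and 0.45. Myc, the growth regulator, had 0.69, 0.59, 0.58 and 0.32, and Egr2, the closest relative of Egr1 on the list, had 0.64, 0.62, 0.50 and 0.31. The orphan nuclear receptors divided the genes differently. Nr4a1 rose with Btg2 (r = 0.49) and Junb (0.47), while its r of 0.03 with Egr1 and 0.12 with Fos did not pass. Nr4a2 had 0.63 with Btg2 and 0.58 with Junb, against 0.23 with Egr1 and 0.26 with Fos. Egr3, another gene of the Egr family, fell with Egr1 (r = -0.26), Btg2 (-0.21) and Fos (-0.18).

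Feedback inhibitors, whose products switch early signals off again, included 7 of 11 measured genes that rose with Egr1, 7 with Btg2, 7 with Fos and 5 with Junb, while 1 fell with Egr1 and 1 with Btg2. Socs3, which blocks cytokine signalling through JAK and STAT proteins, had the highest r with Fos of any named gene other than Egr1 (0.764), and a slope of 0.42 ± 0.02 log2 per SD of Fos (adjusted p = 1.9e-52, limma). With Egr1 its r was 0.742. Zfp36, which encodes tristetraprolin, a protein that brings AU-rich mRNAs such as that of Fos to decay, had an r of 0.83 with Btg2, 0.59 with Junb, 0.51 with Fos and 0.46 with Egr1. The MAP kinase phosphatase Dusp5 had 0.64 with Egr1, 0.42 with Btg2, 0.60 with Fos and 0.33 with Junb. Dusp1, of the same class, had 0.51, 0.44, 0.44 and 0.30. Nab2, a protein that binds EGR1 and represses its activity, rose with Egr1 (r = 0.42), Btg2 (0.17) and Fos (0.20).

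Early effectors, which are secreted factors, matrix proteins and kinases, rose with Egr1 in 13 of 16 measured genes, with Btg2 in 12, with Fos in 12 and with Junb in 8. With Egr1, 2 fell, and with Btg2, 1. Cxcl1, a chemokine that attracts neutrophils, followed Egr1 more closely than any other named gene did (r = 0.818), rising by 0.68 ± 0.03 log2 per SD of Egr1 (adjusted p = 3.38e-66, limma). Its r was 0.38 with Btg2, 0.69 with Fos and 0.30 with Junb. Arc, a cytoskeleton-associated protein best known from synapses, had 0.70, 0.49, 0.67 and 0.27 with Egr1, Btg2, Fos and Junb. The matricellular proteins Ccn1 and Ccn2 had 0.63 and 0.59 with Egr1, and 0.45 and 0.72 with Btg2. Ccl2, a chemokine for monocytes, rose with Egr1 (r = 0.53) and Fos (0.49), and its r of 0.12 with Btg2 and 0.07 with Junb did not pass. Rgs2, which damps signalling from G proteins, had 0.38, 0.56, 0.35 and 0.45 with Egr1, Btg2, Fos and Junb, and Plk3, a stress-responsive kinase, had 0.29, 0.48, 0.34 and 0.35. Rhob, a small GTPase, rose with Btg2 (r = 0.22) and fell with Egr1 (-0.14).

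The kinases and factors that stand above these genes varied little with them. Of 10 measured genes on the list of upstream signalling, 2 rose and 2 fell with Egr1, 2 rose and 1 fell with Btg2, 1 rose with Fos and 2 rose with Junb. Crem, a CREB relative whose own short form is induced by cyclic AMP, was the only one to rise with each of the 4 genes, with r of 0.28, 0.34, 0.30 and 0.35 for Egr1, Btg2, Fos and Junb. Mrtfb, a coactivator of serum response factor, rose with Egr1 (r = 0.19) and Btg2 (0.31), and the kinase Mapk8 rose with Junb (0.22). Of the ternary complex factors, which bind beside serum response factor, Elk1 (r = -0.23) and Elk4 (-0.15) fell with Egr1 and Elk3 fell with Btg2 (-0.18). Srf, the serum response factor itself, passed in none of the fits, with r between -0.12 and 0.10, and neither did Creb1, with r between -0.13 and -0.09. Their products are controlled mainly by phosphorylation, which was not measured.

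Genes of the BTG family and targets of p53 followed Btg2 in 9 of 12 measured genes, against 6 with Egr1, 4 with Fos and 7 with Junb, and 1 fell with Egr1 and 1 with Btg2. Cdkn1a, the cell cycle inhibitor p21, had r of 0.72 with Btg2, a slope of 0.49 ± 0.03 log2 per SD, against 0.29 with Egr1 and a slope of 0.20 ± 0.04. Trp53inp1, a p53-induced nuclear protein, had 0.65 with Btg2, while its 0.10 with Egr1 and 0.16 with Fos did not pass. Gadd45g, a growth arrest protein, had 0.62 with Btg2, 0.45 with Junb, 0.40 with Fos and 0.31 with Egr1. Gadd45b, of the same family, had 0.57 with Junb, 0.41 with Btg2, 0.33 with Fos and 0.28 with Egr1. The relatives Btg1 and Btg3 rose with Btg2 by less, with r of 0.27 and 0.28. Ccng1, another target of p53, did not pass with any of the 4 genes, and its r with Btg2 was -0.12.

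Heat shock genes, which encode chaperones, rose with Egr1 in 10 of 12 measured genes and with Fos in 9, against 5 with Btg2 and 5 with Junb, and 1 of them fell with Btg2. Hspa1a, the inducible HSP70, had an r of 0.73 with Egr1 and changed by 0.76 ± 0.04 log2 per SD of Egr1 (adjusted p = 4.88e-46, limma). Its r was 0.69 with Fos, 0.45 with Btg2 and 0.27 with Junb. Dnajb1, the HSP40 that works with HSP70, had 0.75 with Egr1, 0.75 with Fos, 0.57 with Btg2 and 0.33 with Junb. Hsp90aa1, the inducible HSP90, rose with Egr1 (r = 0.51) and Fos (0.49), while its r of 0.13 with Btg2 did not pass. In the lower-numbered mice 6 heat shock genes rose with Egr1 and 1 with Fos, and outside numbers 51 to 90 and 271 to 310 the counts were 5 and 2. Calls over all features fell as well. There, 1448 rose with Egr1 and 38 with Fos in the lower-numbered mice, and 2353 and 267 outside those numbers. Over all mice the counts were 3222 and 867. Bag3, a cochaperone of HSP70, rose with Btg2 (r = 0.35), Egr1 (0.30) and Fos (0.24), and its r of 0.11 with Junb did not pass. Hspa5, the chaperone of the endoplasmic reticulum, did not pass with any of the 4 genes.

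Stress and fasting genes rose with Btg2 in 14 of 17 measured genes, with Egr1 in 9, with Fos in 8 and with Junb in 10, and 1 fell with Btg2 and 1 with Egr1. Irs2, an adaptor of the insulin receptor, had r of 0.78 with Btg2 and 0.55 with Junb, against 0.31 with Egr1 and 0.37 with Fos. Cebpd, a glucocorticoid-responsive transcription factor, had 0.67 with Btg2, and Nfil3, a transcription factor of the circadian clock, 0.57. Foxo1, the transcription factor that insulin restrains, rose with Btg2 (r = 0.49), and its r of 0.09 with Egr1 and 0.04 with Fos did not pass. Ppargc1a, the coactivator PGC-1alpha that rises in exercised and fasted muscle, had 0.53 with Btg2 and 0.28 with Egr1. Ankrd1, an ankyrin repeat protein of stretched or injured muscle, went the other way, with 0.61 for Egr1 and 0.37 for Btg2. Its slope of 0.92 ± 0.07 log2 per SD of Egr1 was the steepest among the list genes named here.

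**Figure D3:**
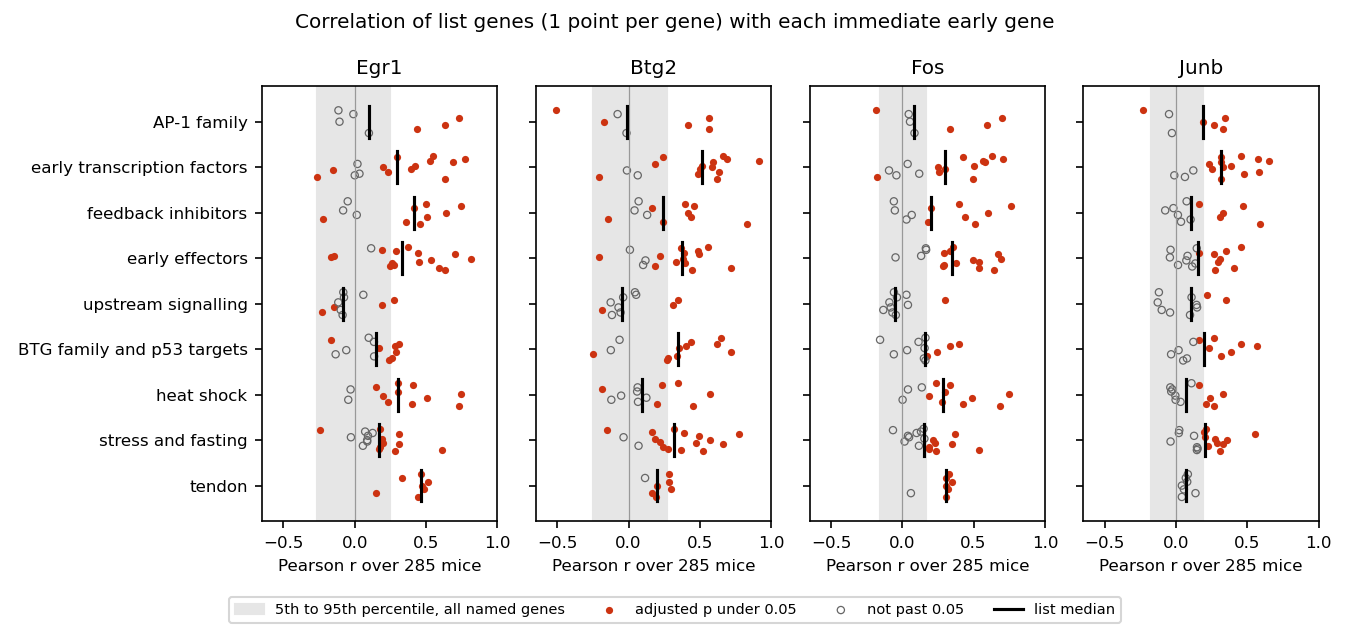
Pearson's r of each measured list gene with Egr1, Btg2, Fos and Junb (x axis, 285 mice), with 1 row for each of 8 lists and for the tendon markers. Filled points passed the limma test at an adjusted p under 0.05, open points did not, black bars are list medians and the grey band spans the 5th to 95th percentile of all named genes; the median of early transcription factors is highest with Btg2 (0.52) and that of the tendon markers is highest with Egr1 (0.47).

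Outside the lists, the genes most like each of the 4 were taken as the 5 with the highest r over 285 mice. For Btg2 they included Sphk1, a sphingosine kinase (r = 0.782), and Slc10a6, a transporter of steroid sulphates (0.738), which rose by 0.70 ± 0.04 log2 per SD of Btg2. For Fos they included Rrad, a small GTPase of muscle (0.718), and for Junb they included Slc51b, a subunit of an organic solute transporter (0.575). The remaining genes of these sets are list genes already described. Genes that ran opposite were less closely tied. For Egr1 the lowest were Irx5 (r = -0.461), Osr2 (-0.438) and Amy1 (-0.434), of which Irx5 and Osr2 are developmental transcription factors. For Btg2 they were Pou4f1, a neural transcription factor (-0.642), Dok4 (-0.560) and ZNF551 (-0.549). For Fos they were Polg2 (-0.423), Hoxd4 (-0.421) and Tab1 (-0.404), and for Junb they were Snai2 (-0.497), Egfl7 (-0.424) and NAP1L5 (-0.419).

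Because Egr1 and Btg2 vary together, they were also entered into 1 fit, which gives the slope of each feature on either gene with the other held fixed, and the difference of the slopes was tested. The slope on Egr1 was larger for 10.7% of all features and the slope on Btg2 was larger for 11.5%. Slopes were compared with their sign, and a feature is said to go with the gene of the larger slope. A slope can thus be the larger because the other is negative. Fos went with Egr1, with slopes of 0.28 on Egr1 and 0.09 on Btg2 and a difference of 0.19 ± 0.03 log2 per SD (SE, n = 285 mice, adjusted p = 3.99e-09, limma). Junb went with Btg2, with slopes of 0.02 on Egr1 and 0.16 on Btg2 and a difference of -0.14 ± 0.02 (adjusted p = 6.96e-07). Heat shock genes went with Egr1 in 9 of 12 cases and with Btg2 in none. Among the 9 was Hspe1, with slopes of 0.03 on Egr1 and -0.08 on Btg2. Fitted on Egr1 alone, Hspe1 did not pass (r = -0.03), and it fell with Btg2 (r = -0.19). Hspa1a had slopes of 0.72 on Egr1 and 0.06 on Btg2, a difference of 0.66 ± 0.09, and Hsp90aa1 had 0.30 and -0.11, a difference of 0.40 ± 0.05. Genes of the BTG family and targets of p53 went with Btg2 in 6 of 12 cases and with Egr1 in none. Trp53inp1 had slopes of -0.23 on Egr1 and 0.53 on Btg2, a difference of -0.77 ± 0.05 (adjusted p = 3.16e-31), and Cdkn1a had -0.11 and 0.55, a difference of -0.65 ± 0.06.

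The other lists differed in how they were divided between the 2 genes. AP-1 family genes had the larger signed slope on Egr1 in 3 of 7 cases and on Btg2 in 1. Among the 3 was Maff, which mainly fell with Btg2, with slopes of 0.05 on Egr1 and -0.14 on Btg2. Feedback inhibitors had it on Egr1 in 3 of 11 cases and on Btg2 in 1. Of 10 upstream signalling genes, 1 had the larger signed slope on Btg2 and none on Egr1. It was Elk1, with slopes of -0.03 on Egr1 and 0.01 on Btg2. Stress and fasting genes had the larger slope on Btg2 in 8 of 17 cases and on Egr1 in 1, which was Ankrd1 with slopes of 0.89 and 0.05. Foxo1 had -0.18 on Egr1 and 0.43 on Btg2, and Irs2 had -0.07 and 0.35, a difference of -0.42 ± 0.03 (adjusted p = 9.55e-30). Of the early transcription factors, 6 of 15 went with Btg2 and 2 with Egr1. Csrnp1 had almost no slope on Egr1 once Btg2 was held fixed, 0.02 against 0.56 on Btg2, and that difference of -0.54 ± 0.03 had the smallest adjusted p of all named genes (9.81e-42). Nr4a1 had -0.21 on Egr1 and 0.41 on Btg2, and Nr4a2 had -0.12 and 0.51. Early effectors were split evenly, 6 of 16 each way. Cxcl1 had 0.73 on Egr1 and -0.08 on Btg2, a difference of 0.81 ± 0.06 (adjusted p = 2.13e-29), and Ccn2 had 0.21 and 0.43. Fewer heat shock genes were called in parts of the data, and so were fewer features in general. In the higher-numbered mice 2 heat shock genes had the larger slope on Egr1. Outside numbers 51 to 90 and 271 to 310 there were 4, and with the curve of the mouse number removed there were 3. Over all 21510 features the counts were 277, 1166 and 509 in these settings, against 2304 in the main fit. For the BTG family and p53 targets the number going with Btg2 was 5 to 7 under every alternative run. For the stress and fasting genes it was 3 in the higher-numbered mice and 4 outside numbers 51 to 90 and 271 to 310. Over all features, 229 and 1099 went with Btg2 in those ranges, against 2477 in the main fit.

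**Figure D4:**
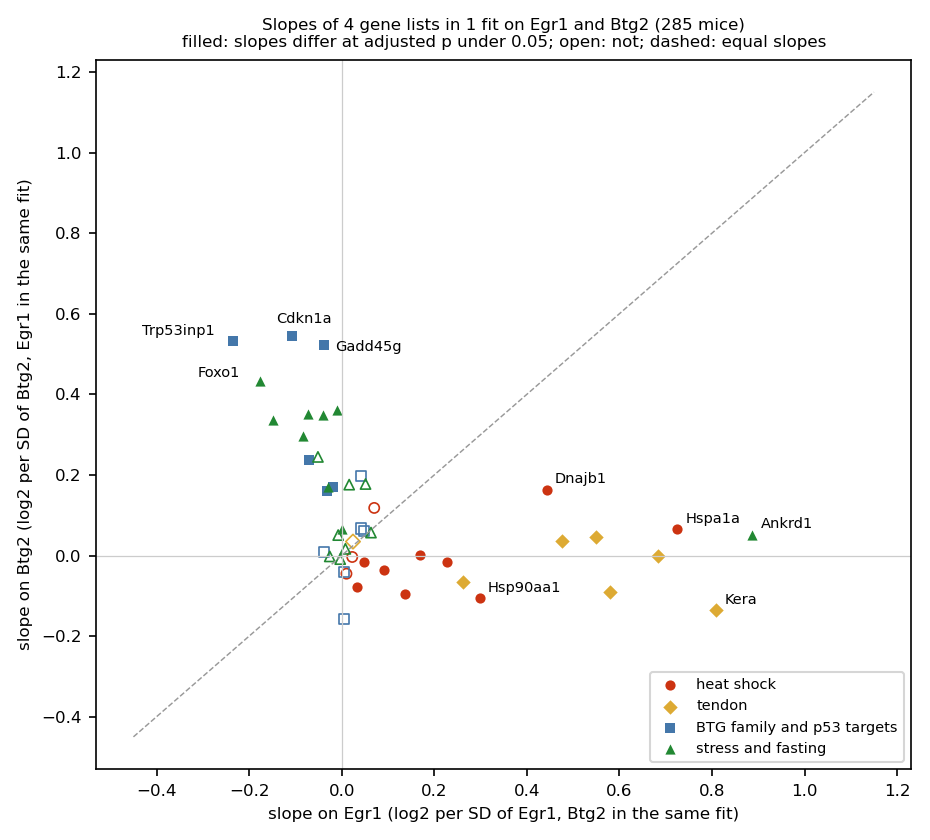
Slopes of heat shock genes, tendon markers, BTG family and p53 target genes, and stress and fasting genes on Egr1 (x axis) and on Btg2 (y axis), both in log2 per SD and from 1 fit over 285 mice. Filled symbols have slopes that differ at an adjusted p under 0.05, open symbols do not, and the dashed line marks equal slopes; Hspa1a (0.72 on Egr1, 0.06 on Btg2) lies to the right and Trp53inp1 (-0.23 and 0.53) to the upper left.

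Markers of some other cells moved with some of the 4 genes. Their counts stand beside the shares of all features that passed. With Egr1 15% of all features rose and 27.1% fell, and with Btg2 15.4% and 23.4%. With Fos the shares were 4.03% and 4.7%, and with Junb 7.29% and 6.62%. All 7 tendon markers rose with Egr1, 6 with Btg2, 6 with Fos and none with Junb. Their r with Egr1 ran from 0.15 for Scx, the transcription factor of tendon cells, to 0.51 for Chad, a cartilage and tendon matrix protein, and the slope of Kera, the proteoglycan keratocan, was 0.73 log2 per SD of Egr1. In the joint fit 6 of the 7 had the larger slope on Egr1 and none on Btg2. EGR1 is known as a regulator of collagen genes in tendon. With the mean of the 7 markers removed from every feature, r between Egr1 and Fos was 0.788 and 50 of the 100 list genes still rose with Egr1, while 430 of all features did, against 3222 before. Of the 5 measured fibroblast markers, 5 rose with Egr1, 2 with Btg2 and 2 with Fos. Of 10 macrophage markers, 5 rose and 1 fell with Egr1, from Cd14 with an r of 0.38 to Cd68 with -0.28. With Btg2 1 of them rose and 2 fell, with Fos 2 rose and with Junb 1 rose. Of 6 erythroid markers, 5 fell with Btg2, where Hbb-b1 had an r of -0.29, and 3 fell and 1 rose with Egr1. All 3 measured Schwann cell markers rose with Btg2 and 2 with Egr1, and the myelin protein gene Pmp22 had an r of 0.41 with Btg2. Of 9 endothelial markers, 4 rose with Btg2, led by Esam with an r of 0.47, and 3 rose and 1 fell with Egr1. Of 5 smooth muscle markers, 3 rose with Btg2, and 1 fell with Egr1 and 1 with Fos. Lymphocyte markers passed in 1 of 8 cases with Egr1, where it fell, and in none with the other 3 genes. The single macrophage, endothelial, smooth muscle and lymphocyte markers that fell with Egr1 were no more than the share of all features. In whole muscle, fewer cells of a type and less RNA per cell cannot be told apart, and the part of these cells in the relations between the early genes was not tested beyond the removal of the tendon markers. Ratios to a pool hold no level, so the muscle label itself could not be checked against myofibre genes.

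The width of an array, the SD of all its log2 ratios, had a median of 0.288 and ran from 0.175 to 0.605. Its r with Btg2 was 0.225 (adjusted permutation p = 0.00052 over 4 genes), with Fos 0.190 (0.00382), with Egr1 0.152 (0.0131) and with Junb -0.0344 (0.564). Spearman's rho was 0.248, 0.136, 0.153 and -0.0116 for the same genes, and without the 2 mice farthest in width r was 0.241, 0.184, 0.141 and -0.000545. Within ranges of the mouse number r was 0.145 and 0.127 for Btg2, 0.199 and 0.142 for Fos and 0.0314 and 0.143 for Egr1 in lower- and higher-numbered mice. None of these values of r passed the adjusted test. Spearman's rho for Fos in lower-numbered mice, 0.232, did pass (adjusted permutation p = 0.0226). With each array scaled to the same width, all 6 pairs of early genes stayed past the test. Scaling did not remove the relation to the original width. After it r was 0.213 for Btg2 (adjusted permutation p = 0.00096), 0.204 for Egr1 (0.00132), 0.173 for Fos (0.00531) and -0.00122 for Junb (0.984). Spearman's rho for Egr1 was then 0.285. The part of array width in the pair correlations was not tested further.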

How the data were processed

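Per the labels, mouse RNA carried Cy3 and pool RNA carried Cy5. The authors deposited 1 table whose scale the labels do not state, and its values were taken to be log10 of the mouse signal over the pool signal. Since the pool averages all mice, a gene's mean linear ratio should lie near 1. For the Y-linked gene Eif2s3y it was 0.796 in this reading, 23.2 with the sign turned, 0.751 read as base 2 and 1.92 with both changed, and for Kdm5d it was 0.942, 3.43, 0.885 and 1.28 in the same order, so the base rests on smaller differences than the sign. Folds and log2 values rest on this reading, correlations and tests do not. The deposited medians of the arrays lay between -0.0222 and 0.0173, and values were bounded at 2 and -2, which none of the 4 genes reached. Background correction, dye normalisation, signal and background were not given in the sources used here, so depth is unknown and the number of arrays limits the precision.

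Values were converted to log2. Only the 23510 probes measured on 80% or more of the arrays were used, with missing values (0.00181%) set to the mean of the probe. Averaging the probes of 1 symbol left 11622 named genes beside 9890 unnamed probes. Of all probes, 13653 had 1 symbol, 48 had several and 9859 had none, and 12650 symbols were updated through the Entrez identifier.

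Trends and slopes were fitted over all features with limma 3.58.1 in R 4.3.3 (lmFit, eBayes, Benjamini-Hochberg). Correlations used two-sided permutation tests with 100000 shuffles in Python 3.11.15, and clusters used mclust 6.1.1. On simulated data with 200 of 21512 features changed, the slope on Egr1 and the spline each recovered 100% with 3.85% and 4.76% false calls, and a slope difference recovered 29.5%. Promoter windows came from RefSeq (GRCm38.p6), and the set used held no window of Egr1.

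The genes, lists and tests were chosen with earlier results of these data known. Named with values were the 3 genes of each list with the largest absolute r, the 5 highest and 3 lowest named genes for each of the 4 genes, and the highest mice. Other list genes, markers and mice given with values, and the joint fit of Egr1 and Btg2, were chosen after values were seen. Nothing says the mice came from separate litters, so p-values measure the spread between these samples. No columns of other samples were present.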

Additional observations from a re-analysis of the deposited data

How the results depend on the processing

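All 6 pairs of early genes kept their direction and their side of the threshold under every alternative run. The trends of Egr1 and Btg2 along the mouse number stayed past the threshold in every alternative run for them. For Egr1 the share was 19.7% in the main run and 6.54% with the first 5 components removed. With tendon markers removed it was 4.39% (adjusted p = 0.0355, limma). For Btg2 it was 26.3% in the main run, 15.3% with components removed and 23.1% with tendon markers removed. The trend of Fos did not pass with tendon markers removed (3.01% of variance), and that of Junb passed with 10 degrees of freedom (7.12%).

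With lower-numbered mice only, 1448 features rose and 2001 fell with Egr1, 1736 and 1771 with Btg2, 38 and 26 with Fos, and 547 and 419 with Junb. With higher-numbered mice only the counts were 1304 and 2010 for Egr1, and 965 and 1166 for Btg2. Outside numbers 51 to 90 and 271 to 310 they were 1724 and 2208 for Btg2, 267 and 189 for Fos, and 875 fell with Junb. With the first 5 components removed, 1382 rose and 1697 fell with Egr1, 2359 fell with Btg2, and 1767 rose and 1857 fell with Fos. With the trend removed, 694 and 724 were called for Egr1, 930 and 841 for Btg2 and 478 and 450 for Fos. With tendon markers removed, an alternative chosen after seeing the data, 430 and 328 were called for Egr1, 2750 fell with Btg2, and 545 rose and 547 fell with Fos. With ranks in place of values, 454 rose and 432 fell with Fos, and 2660 rose and 2524 fell with Junb. The cause of the changes was not tested.

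Of the 100 list genes, in lower-numbered mice 36 rose and 5 fell with Egr1, 5 fell with Btg2, 15 rose and 0 fell with Fos, and 26 rose and 2 fell with Junb. In higher-numbered mice 0 fell with Egr1, 4 with Btg2 and 0 with Fos. Outside numbers 51 to 90 and 271 to 310, 4 fell with Btg2, 34 rose and 1 fell with Fos, and 34 rose and 3 fell with Junb. With components removed 3 fell with Egr1 and 2 with Btg2, with the trend removed 0, 2, 0 and 2 fell with Egr1, Btg2, Fos and Junb, and with tendon markers removed 0, 3 and 0 fell with Egr1, Btg2 and Fos. With ranks 1 fell with Fos and 3 with Junb, and with arrays scaled 1 fell with Fos.

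The slope on Egr1 exceeded that on Btg2 for 277 features in higher-numbered mice, for 1166 without mice 51 to 90 and 271 to 310 and for 509 with the trend removed, against 2304, and fell short of it for 229, 1099 and 514, against 2477. The relation to array spread was judged here by r. It did not pass for Egr1 in lower-numbered (0.0314) and higher-numbered mice (0.143). Nor did it pass with components (0.0721), trend (0.00272) or tendon markers removed (0.116). For Btg2 it did not pass at 0.145, 0.127, 0.0591 and 0.0655 in the first 4 of these settings, nor for Fos at 0.199 and 0.142 in the number ranges and 0.0761 with the trend removed. For Junb r was 0.0412 without the 12 arrays of outlying spread and 0.0518 in lower-numbered mice. Read as log2 or natural logarithms, the highest values would be 1.07 or 1.55 for Egr1, 0.86 or 1.25 for Btg2, 0.75 or 1.08 for Fos and 0.27 or 0.39 for Junb. No paired analysis was possible because all mice form 1 group. Correlations within clusters were not run, since no gene fell into clusters.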
